A study of Mus musculus with 17 samples.

Results

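The genes described here are 37 genes of the kidney's blood vessels: markers of endothelial cells, the vascular endothelial growth factors (VEGF) and angiopoietins with their receptors, and genes of the mural cells that wrap vessels. They were chosen by name, and all 37 were found among 55487 gene identifiers in the table of counts from mouse kidney, each by its Ensembl identifier. Transcripts were counted by 3′ end sequencing (QuantSeq forward kit on polyadenylated RNA) in 17 kidneys, 1 library per animal, all from males aged 16 weeks on the BKS background. The db/db group (n = 9) was homozygous for the Leprdb allele. Loss of this receptor's signalling form leads to overeating, obesity and diabetes. The db/m group (n = 8) was heterozygous for Leprdb. No treatment is given in the labels.

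Groups follow the sample titles, whose sizes are those of the stated design. A separate genotype entry has the names the other way round in all 17 samples, and if it were right every direction below would turn round. Library numbers run through db/m and then db/db, so a batch that followed them cannot be told apart from genotype. The extraction text speaks of cells in plates, but the tissue field gives kidney, and markers of proximal tubule (Slc34a1, 3305 ± 507 CPM in db/db and 3231 ± 351 CPM in db/m) and of the thick ascending limb (Umod, 705 ± 139 CPM in db/db and 899 ± 209 CPM in db/m) were abundant. CPM are counts scaled for library size, given as mean ± SD over animals. Libraries held 3256427 to 7627747 gene counts. One library stood apart as a whole: db/db replicate 8 had a score of 79.2 on the first principal component, against -44.3 to 43.1 in the others, and a mitochondrial share of 22.0% of counts, against 25.4% to 30.6%. Without it the call of Nrp1 held (log2 fold change -0.71) and Sema3g passed as well. Other tissue came with some pieces. The summed level of 5 urothelium markers ran from 16.0 to 75.5 CPM in db/db, highest in replicate 9, and from 1.39 to 100.0 CPM in db/m, highest in replicate 8. The same libraries were the highest of their groups for 4 fat markers (103 CPM in db/db replicate 9 and 156 CPM in db/m replicate 8). Summed striated muscle markers, 3 in number, reached 37.2 CPM in db/db, against 146 and 200 CPM in db/m replicates 7 and 1. The summed level of 5 leukocyte markers was 5.27 to 9.57 CPM in db/db and 9.74 to 18.0 CPM in db/m, so the groups did not overlap. The largest term of that sum was Ptprc, the marker of all leukocytes and the only one of the 5 with enough counts to test. The macrophage markers did not share a direction: Adgre1 was at 1.49 ± 1.05 CPM in db/db and 1.07 ± 0.642 CPM in db/m, and Cd68 at 1.56 ± 0.792 CPM in db/db and 2.28 ± 1.17 CPM in db/m. The T cell marker Cd3e had 6 counts over db/db and 15 over db/m.

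Endothelial cells line every vessel of the kidney, from the fenestrated capillaries of the glomerulus to the peritubular capillaries and vasa recta. In the glomerulus, podocytes secrete VEGF-A, which signals through the receptor Kdr on the neighbouring endothelium, while Flt1 binds the same ligand and can act as a decoy. Neuropilins are co-receptors that bind VEGF and class 3 semaphorins. Angiopoietin 1, made by mural cells, activates the receptor Tek and stabilises vessels, and angiopoietin 2 can oppose it. Pericytes, mesangial cells and smooth muscle surround the endothelium and respond to PDGF through Pdgfrb.

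Of the 37 genes, 36 had enough counts to be tested, and 1 differed between db/db and db/m kidneys. It was the co-receptor Nrp1, which was lower in db/db (quasi-likelihood test of edgeR, p adjusted by Benjamini-Hochberg over all 12131 genes tested, threshold 0.05). None of the 36 rose at that threshold in edgeR, 2 were higher at an unadjusted p under 0.05, and DESeq2 called 1 higher, Sema3g. Over all genes tested, 7.39% were called, 3.91% higher and 3.49% lower. Whether 1 of 36 differs from that share was not tested. No member had CPM ranges that were apart between the groups, against 1.78% of all genes tested. At an unadjusted p under 0.05 there were 5 of the 36 (13.9%), against 21.1% of all genes tested. Log2 fold changes of db/db over db/m had a median of 0.12 over the 36, against 0.0033 over all genes tested. For 32 of the 36 (88.9%) the 95% interval of the log2 fold change lay within ± 1, as it did for 84.1% of all genes tested. For these 32, a change larger than that lies outside the interval. In pieces of whole kidney, fewer cells of a type and less RNA per cell cannot be told apart.

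**Figure D1:**
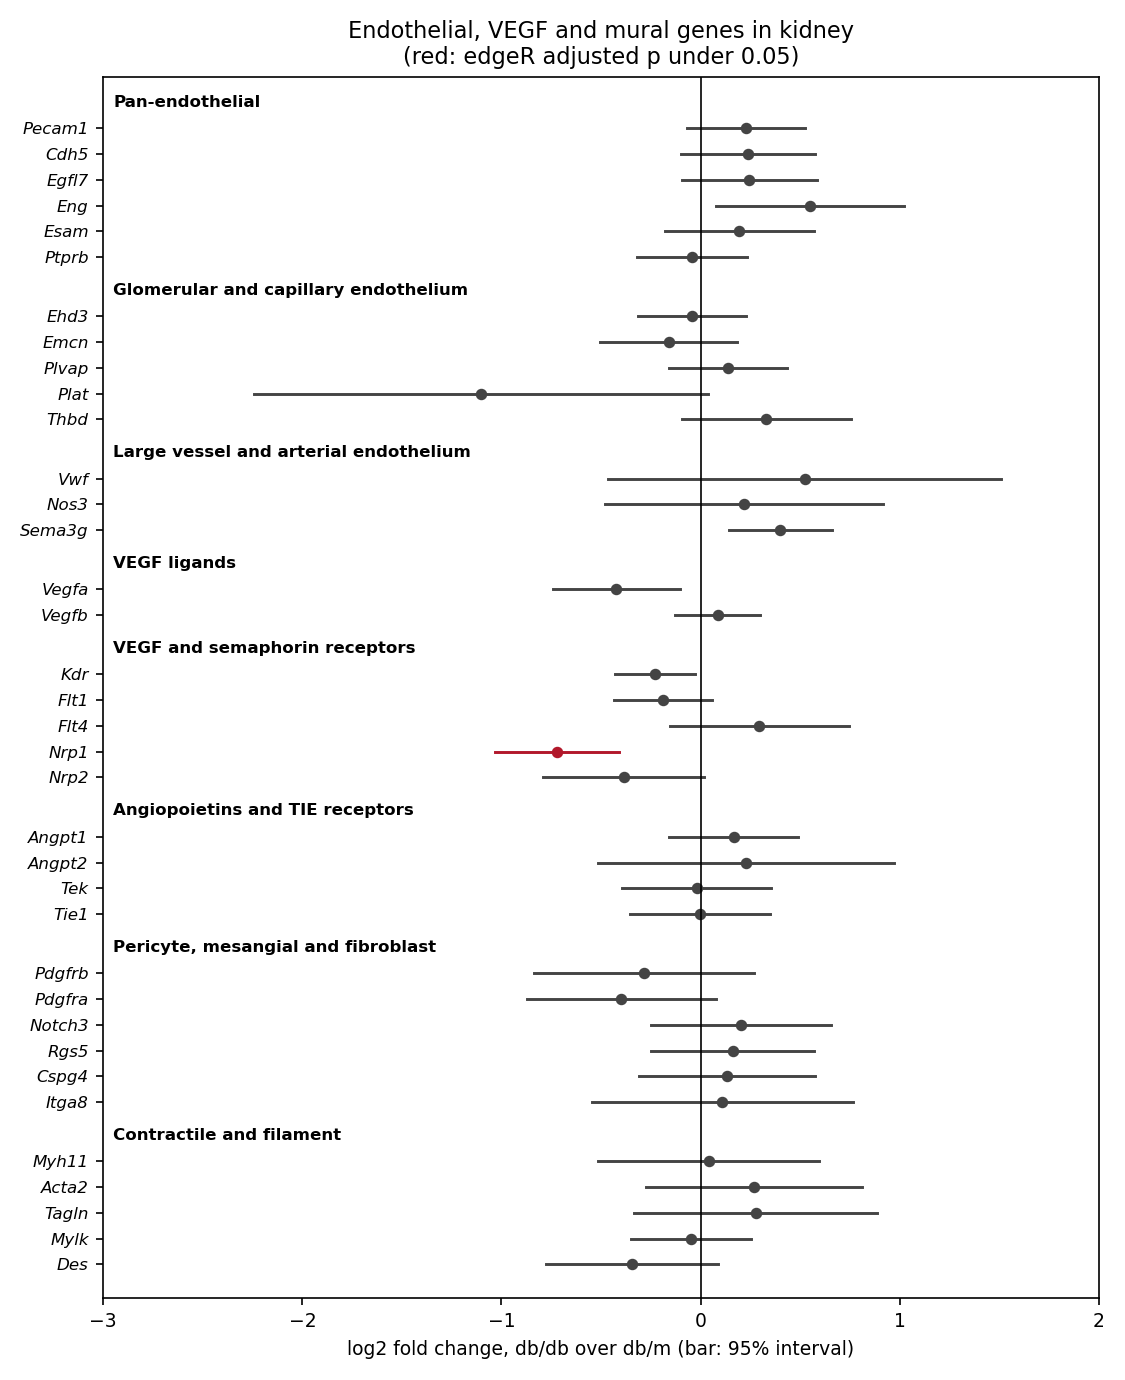
Log2 fold change of db/db over db/m for the 36 tested genes (points) with its 95% interval (bars), grouped by role; red marks an edgeR adjusted p under 0.05. Nrp1 at -0.72 is the marked gene, and the interval of Plat, from -2.24 to 0.04, is the widest on the left.

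Nrp1 carried the clearest difference among the VEGF and semaphorin receptors. Its level ran from 56.7 to 107 CPM in db/db (median 69.0) and from 77.3 to 156 CPM in db/m (median 123). In 7 of 9 db/db libraries it lay under the lowest db/m library, which was replicate 5, and in 9 of 9 under the db/m median, though the ranges overlapped. On the log2 scale the fold change was -0.72 (SE 0.15, 95% interval from -1.03 to -0.41; edgeR adjusted p = 0.00379). The difference in mean log2 CPM was -0.71, with an exact two-sided permutation p of 0.00103. Leaving out each library in turn gave -0.80 to -0.66, with the call kept in all 17 fits. Nrp1 is also carried by cells other than endothelium, and Ptprc was at 3.65 ± 0.840 CPM in db/db and 10.4 ± 2.73 CPM in db/m, while the macrophage marker Adgre1 had 60 counts over db/db and 42 over db/m. Striated muscle markers were also highest in db/m libraries. Without db/m replicates 1 and 7, a setting chosen after seeing the data, the log2 fold change of Nrp1 was -0.81 (edgeR adjusted p = 0.00292). The parts of leukocytes and of attached muscle in the Nrp1 difference were not tested.

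The other receptors of the VEGF system did not pass the test. Kdr, the main signalling receptor of VEGF-A, ran from 108 to 148 CPM in db/db (median 119) and from 120 to 189 CPM in db/m (median 136). It lay under the db/m median in 8 of 9 db/db libraries and under the lowest db/m library in 5. The value of -0.23 (log2, SE 0.10, 95% interval from -0.43 to -0.03) missed the threshold (edgeR adjusted p = 0.170; exact two-sided permutation p = 0.0122, not adjusted). Nrp2, the neuropilin best known in veins and lymphatics, was at 15.0 to 30.3 CPM in db/db and 18.0 to 41.4 CPM in db/m, with a log2 fold change of -0.39 (SE 0.20; edgeR adjusted p = 0.261). Flt1 was at 75.6 ± 12.8 CPM in db/db and 86.1 ± 13.6 CPM in db/m (log2 fold change -0.19, SE 0.12). Soluble Flt1 has its own 3′ end, but the counts are per gene and do not separate it. Flt4, the receptor for VEGF-C and VEGF-D on lymphatic and fenestrated endothelium, had a positive value (0.30, SE 0.22), with 8.54 ± 2.52 CPM in db/db and 6.93 ± 2.34 CPM in db/m. Thus 4 of the 5 receptors had negative values and 1 passed the test.

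The 250 bases upstream of the RefSeq start (GRCm38.p6) are given 5′ to 3′ for 3 of the receptors. They are Nrp1 (chr8:128358823-128359072, plus strand), Kdr (chr5:75978456-75978705, minus strand) and Flt1 (chr5:147726012-147726261, minus strand). Of these, Nrp1 alone passed the test. Capitals mark GGAAG on either strand (CTTCC on the printed one), a core bound by ETS family factors such as Erg and Fli1, which act in endothelial cells.
Nrp1: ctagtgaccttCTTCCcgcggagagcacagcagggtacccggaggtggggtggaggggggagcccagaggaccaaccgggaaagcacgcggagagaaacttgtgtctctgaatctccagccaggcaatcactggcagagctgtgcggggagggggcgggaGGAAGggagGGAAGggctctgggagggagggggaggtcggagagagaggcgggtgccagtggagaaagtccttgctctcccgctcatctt
Kdr: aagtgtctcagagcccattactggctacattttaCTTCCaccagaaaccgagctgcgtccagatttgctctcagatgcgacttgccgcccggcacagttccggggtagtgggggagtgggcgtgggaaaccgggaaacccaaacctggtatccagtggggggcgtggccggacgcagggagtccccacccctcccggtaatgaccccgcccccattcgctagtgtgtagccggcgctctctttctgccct
Flt1: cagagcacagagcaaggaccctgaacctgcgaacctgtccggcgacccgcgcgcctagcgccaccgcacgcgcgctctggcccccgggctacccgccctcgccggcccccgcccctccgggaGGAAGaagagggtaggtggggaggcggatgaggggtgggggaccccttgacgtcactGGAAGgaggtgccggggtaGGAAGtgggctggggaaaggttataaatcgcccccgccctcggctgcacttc
The letters occur 3 times in the Nrp1 window, 1 time in the Kdr window and 3 times in the Flt1 window. In the window of the receptor Nrp2, which is not printed, they occur 0 times. The letters are common: 64.1% of 32851 windows of the same length held them. Of the 37 genes, 22 had a window, and 12 of these held the letters. A match is a description of the sequence and says nothing of binding in these kidneys. Erg and Fli1 themselves had log2 fold changes of -0.01 (SE 0.18) and 0.03 (SE 0.21).

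Among the ligands, Vegfa had a negative value and Vegfb did not. Vegfa ran from 32.3 to 89.8 CPM in db/db (median 60.4) and from 68.8 to 108 CPM in db/m (median 80.3). In 6 of 9 db/db libraries it was under the lowest db/m library, and db/db replicate 1 was the highest of its group. Its fold change of -0.42 (log2, SE 0.15, 95% interval from -0.74 to -0.10) did not pass (edgeR adjusted p = 0.106; exact two-sided permutation p = 0.00938, not adjusted). Without db/db replicate 1 it was -0.50 and passed (edgeR adjusted p = 0.0271). Splice forms of Vegfa cannot be separated in counts per gene. Podocytes are a known source of Vegfa, and their slit diaphragm gene Nphs1 rose, with 7.27 ± 2.78 CPM in db/db and 4.08 ± 1.37 CPM in db/m (log2 fold change 0.84, SE 0.25; edgeR adjusted p = 0.0437). The summed level of 9 podocyte markers was 242 to 344 CPM in db/db and 201 to 284 CPM in db/m, and their part in the Vegfa value was not tested. Vegfb, which binds Flt1, was at 93.5 ± 15.0 CPM in db/db and 88.1 ± 7.97 CPM in db/m (0.09, SE 0.10; 95% interval -0.13 to 0.30; 0.048 to 0.13 with 1 library left out).

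Sema3g, a class 3 semaphorin and neuropilin ligand made by podocytes and arterial endothelium, lay at the threshold. It ran from 32.5 to 47.1 CPM in db/db (median 41.2) and from 21.5 to 37.4 CPM in db/m (median 30.1). All 9 db/db libraries were above the db/m median, 6 of them above the highest db/m library. Sema3g had a log2 fold change of 0.40 (SE 0.12, 95% interval from 0.14 to 0.66; edgeR adjusted p = 0.0510; exact two-sided permutation p = 0.00255). It passed with DESeq2 (adjusted p = 0.0234) and in 4 of the 17 fits that left out 1 library, namely number 3 or 7 of db/m and number 1 or 8 of db/db (edgeR adjusted p from 0.0292 to 0.0485).

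**Figure D2:**
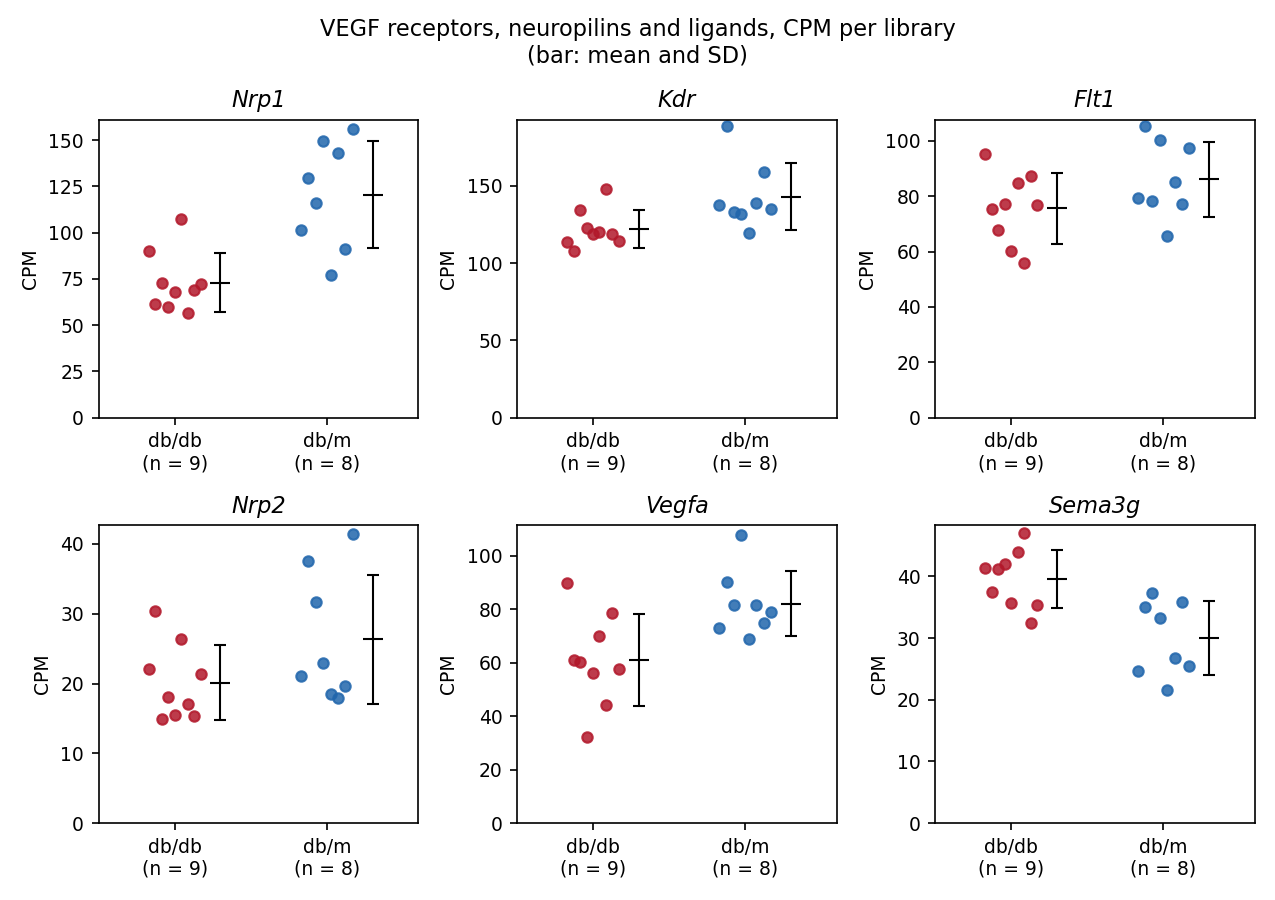
CPM (vertical axes, from 0) in each library for Nrp1, Kdr, Flt1, Nrp2, Vegfa and Sema3g; points are animals, 9 db/db and 8 db/m, and bars give the mean and SD. Nrp1 lies mostly lower in db/db, from 56.7 to 107 CPM against 77.3 to 156 CPM in db/m, while the points of Flt1 and Nrp2 overlap.

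The angiopoietin system showed no called member among 4. Angpt1 ran from 11.2 to 19.7 CPM in db/db (median 13.3) and from 9.52 to 19.2 CPM in db/m (median 11.9), with a log2 fold change of 0.17 (SE 0.16; edgeR adjusted p = 0.592) that was 0.27 without db/m replicate 2 and 0.11 without db/db replicate 1. Angpt2 was more variable, at 2.28 to 13.7 CPM in db/db (median 4.83) and 3.01 to 10.9 CPM in db/m (median 4.71). Its log2 fold change of 0.23 (SE 0.36) was 0.02 or 0.03 without db/db replicate 6 or 9 and 0.45 without db/m replicate 8. The receptor Tek was at 11 ± 3.12 CPM in db/db and 11.1 ± 2.57 CPM in db/m (-0.02, SE 0.18; 95% interval -0.40 to 0.35). Tie1, an orphan receptor that pairs with Tek, averaged 19.4 CPM in each group (SD 4.98 in db/db and 3.71 in db/m). Angpt2 overlaps Mcph1 on the opposite strand, and since the strand setting of the counting is not given, its reads are uncertain.

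Endothelial markers as such did not separate the groups. Of 14 endothelial genes tested, 10 had positive and 4 negative log2 fold changes, with a median of 0.22, and none passed in edgeR. At an unadjusted p under 0.05 in edgeR there were 2 (14.3%, against 21.1% of all genes tested), Eng and Sema3g. DESeq2 called 1, Sema3g. Among the genes shared by all endothelium, the adhesion molecule Pecam1 ran from 38.7 to 83.9 CPM in db/db (median 60.0) and from 35.8 to 65.5 CPM in db/m (median 53.7). That is a log2 fold change of 0.23 (SE 0.14; edgeR adjusted p = 0.385). The junctional cadherin Cdh5 was at 9.11 ± 1.19 CPM in db/db and 7.67 ± 2.04 CPM in db/m, above the db/m median in 9 of 9 db/db libraries (0.24, SE 0.16; edgeR adjusted p = 0.430). Egfl7, a secreted endothelial protein, had 99.6 ± 30.2 CPM in db/db and 84.1 ± 15.3 CPM in db/m (0.25, SE 0.16), a value that was 0.12 without db/db replicate 8 at 166 CPM. The TGF-β co-receptor Eng had the most positive value, 0.55 (SE 0.23; edgeR adjusted p = 0.159), with 39.3 to 145 CPM in db/db (median 48.6) and 34.9 to 57.1 CPM in db/m (median 45.4). That value rested in part on db/db replicate 8 at 145 CPM, without which it was 0.31. Egfl7 and Eng overlap Agpat2 and Fpgs on the opposite strand, so some of their reads are uncertain too. The junctional protein Esam (0.19, SE 0.18) and the phosphatase Ptprb, which acts on Tek (-0.04, SE 0.13), made up the rest of this group.

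Genes of glomerular and capillary endothelium gave log2 fold changes from -1.10 to 0.33, and none of the 5 passed (0 at an unadjusted p under 0.05 in edgeR, and 0 with DESeq2). Ehd3, which in kidney marks glomerular endothelium, was at 74.4 to 145 CPM in db/db (median 106) and 79.9 to 127 CPM in db/m (median 106). Its value was -0.04 (SE 0.13, 95% interval from -0.32 to 0.23), and -0.13 without db/db replicate 8. Emcn, a capillary and venous sialomucin, was at 36.0 to 65.0 CPM in db/db (median 54) and 35.2 to 95.8 CPM in db/m (median 55.5), a log2 fold change of -0.16 (SE 0.17) that was -0.014 without db/m replicate 8. Plvap, which forms the diaphragms of peritubular capillary fenestrae, was at 64.1 ± 16.2 CPM in db/db and 58.2 ± 6.03 CPM in db/m (0.14, SE 0.14). The anticoagulant receptor Thbd was at 5.88 to 12.3 CPM in db/db and 3.94 to 10.4 CPM in db/m (0.33, SE 0.21; edgeR adjusted p = 0.378).

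Plat, which encodes tissue plasminogen activator, was decided by single libraries. It lay at 1.27 to 11.6 CPM in db/db (median 2.79) and 2.10 to 32.8 CPM in db/m (median 3.67), with db/db replicate 1 and db/m replicate 8 far above their groups. The log2 fold change of -1.10 (SE 0.55; edgeR adjusted p = 0.255) was -0.05 with DESeq2, -0.07 without db/m replicate 8, and -1.60 and called without db/db replicate 1 (edgeR adjusted p = 0.0495).

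The larger vessel markers other than Sema3g, which are Vwf and Nos3, were low. The clotting factor carrier Vwf had 123 counts over db/db and 75 over db/m, at 0.621 to 5.96 CPM in db/db and 0.243 to 4.63 CPM in db/m, a log2 fold change of 0.52 (SE 0.48; edgeR adjusted p = 0.577). Endothelial nitric oxide synthase Nos3 was at 4.98 ± 2.68 CPM in db/db and 4.29 ± 1.36 CPM in db/m (0.22, SE 0.34; 95% interval -0.48 to 0.92). The interval of Vwf was wide, from -0.47 to 1.51. Single libraries moved both: Vwf was 0.26 without db/db replicate 9 and 0.79 without db/m replicate 7 or 8. Nos3 was 0.068 to 0.11 without db/db replicate 6 or 9 or db/m replicate 6, and 0.36 or 0.37 with number 8 of either group left out.

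None of 11 tested mural genes passed in edgeR, 0 did at an unadjusted p under 0.05, and 0 in DESeq2. Log2 fold changes ran from -0.40 to 0.28 with a median of 0.11. The PDGF receptor Pdgfrb of pericytes and mesangial cells ran from 3.11 to 14.1 CPM in db/db (median 8.36) and from 4.63 to 16.3 CPM in db/m (median 9.67), a value of -0.28 (SE 0.27; edgeR adjusted p = 0.587) that was -0.16 to -0.17 when number 8 of db/db, or number 2 or 8 of db/m, was left out. Pdgfra, carried by interstitial fibroblasts, ran from 4.83 to 15.0 CPM in db/db and 7.94 to 23 CPM in db/m (-0.40, SE 0.23; edgeR adjusted p = 0.335), and its value was -0.24 without db/m replicate 8. Notch3, the Notch receptor of mural cells, was at 5 to 11.3 CPM in db/db and 3.94 to 9.44 CPM in db/m (0.20, SE 0.22; 0.13 with number 9 of db/db or number 5 of db/m left out). Rgs5, a regulator of G protein signalling in pericytes, the proteoglycan Cspg4 and the mesangial integrin chain Itga8 had values of 0.16 (SE 0.20), 0.13 (SE 0.21) and 0.11 (SE 0.32). Cspg4 turned to -0.079 and Itga8 was 0.23 without db/db replicate 8. Plvap and Gli1 overlap Gtpbp3 and Arhgap9 on the opposite strand. Gli1, a Hedgehog effector that marks perivascular progenitors, was too low to test, with 37 counts over db/db and 33 over db/m (0 in db/db replicate 4 and db/m replicate 1; exact permutation p = 0.895, two-sided).

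Contractile genes varied widely between animals. The median coefficient of variation over 5 genes was 34.8% in db/db and 38.6% in db/m. Over all genes tested it was 28.0% in db/db and 21.0% in db/m. Pericyte, mesangial and fibroblast genes had 36.5% in db/db and 33.1% in db/m, and large vessel genes 53.9% in db/db and 31.7% in db/m. The remaining role groups lay below the contractile genes in both db/db and db/m. Smooth muscle actin Acta2 ran from 48.3 to 146 CPM in db/db (median 71.6) and from 34.0 to 136 CPM in db/m (median 57.3), a log2 fold change of 0.27 (SE 0.26; edgeR adjusted p = 0.608) that was 0.10 without db/db replicate 9 and 0.51 without db/m replicate 8. Smooth muscle myosin Myh11 was at 21.4 to 68.7 CPM in db/db (median 38.9) and 21.7 to 85.4 CPM in db/m (median 27.0), with a log2 fold change of 0.04 (SE 0.27). The actin-binding protein Tagln was at 3.02 to 22.0 CPM in db/db and 4.63 to 12.3 CPM in db/m (0.28, SE 0.29; 0.062 without db/db replicate 8 and 0.18 without db/db replicate 9), and overlaps Pcsk7 on the opposite strand. Myosin light chain kinase Mylk was at 376 ± 88.4 CPM in db/db and 388 ± 72.7 CPM in db/m (-0.05, SE 0.14), and the intermediate filament gene Des at 8.97 ± 2.03 CPM in db/db and 11.5 ± 4.45 CPM in db/m (-0.34, SE 0.21). Des, which striated muscle also expresses, was highest in db/m replicate 7 at 19.9 CPM, and its value was -0.19 without that library and -0.039 without db/m replicates 1 and 7. The highest Acta2 and Myh11 libraries of each group, db/db replicate 9 and db/m replicate 8, were also the highest for urothelium and fat markers; the part of attached tissue was not tested. Without these 2 libraries Acta2 was at 0.34 (edgeR adjusted p = 0.420).

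**Figure D3:**
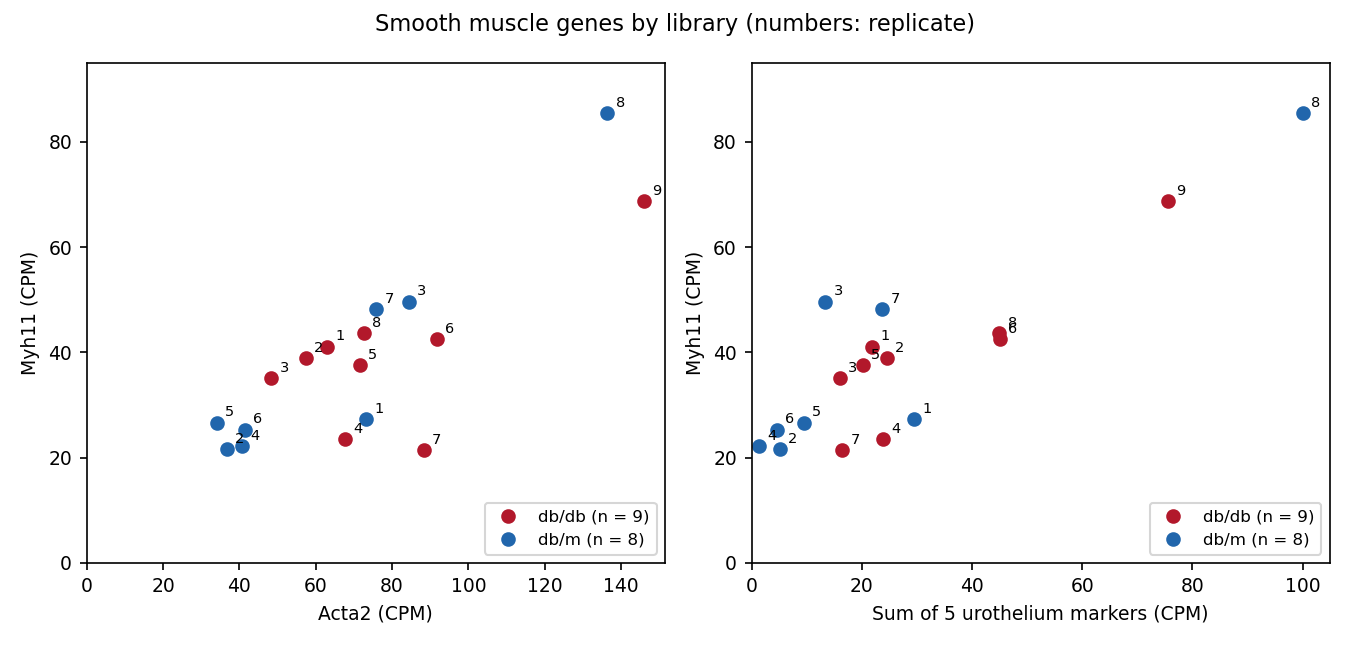
Myh11 (vertical axes, CPM) against Acta2 (left, CPM) and against the summed CPM of 5 urothelium markers (right) in each library; red points are db/db, blue points db/m, and numbers are replicates. db/db replicate 9 and db/m replicate 8, at 68.7 and 85.4 CPM of Myh11, stand at the upper right in both panels.

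Some of these genes varied together among animals of a group. Pairs were correlated on log2 CPM within each group, 12 relations in all, with exact two-sided permutation p adjusted over the 12. Acta2 and Myh11 went together in db/m (r = 0.912, exact p = 0.00134, adjusted p = 0.0117; rho = 0.857, exact p = 0.0107, adjusted p = 0.0871; n = 8), and r was 0.866 without the 2 libraries farthest from the median of Acta2. In db/db the same pair had r = 0.437 (exact p = 0.232; rho = 0.433, exact p = 0.250; n = 9), and r = -0.236 without 2 libraries. Pecam1 and Emcn went together in db/db (r = 0.848, exact p = 0.00195, adjusted p = 0.0117; rho = 0.783, exact p = 0.0172, adjusted p = 0.0871; n = 9), with r = 0.785 without 2 libraries, and had r = 0.701 in db/m (exact p = 0.0456, adjusted p = 0.135; rho = 0.810, exact p = 0.0218; n = 8). Vegfa and Kdr gave r = -0.422 in db/db (exact p = 0.254; rho = -0.500, exact p = 0.178; n = 9) and r = 0.230 in db/m (exact p = 0.554; rho = 0.143, exact p = 0.752; n = 8). The other 3 pairs, Acta2 with Tagln, Kdr with Flt1 and Acta2 with Kdr, had adjusted p of 0.110 or above for both measures in each group. Whether any correlation differed between the groups was not tested.

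Other genes of the same systems were examined as 3 lists, chosen with earlier results of these data known. Of 17 angiogenic ligands and Notch or PDGF signals, 13 were tested, 0 rose (1 at an unadjusted p under 0.05, Vegfd, which DESeq2 called) and 1 fell, with a median log2 fold change of 0.02. Over all genes tested, edgeR called 3.91% higher and 3.49% lower. At an unadjusted p under 0.05 in edgeR there were 2 of the 13 (15.4%, against 21.1% of all genes tested). The gene that fell was Pdgfd, a ligand of Pdgfrb. It ran from 2.07 to 6.64 CPM in db/db (median 2.96) and from 5.33 to 8.84 CPM in db/m (median 6.41), below every db/m library in 7 of 9 db/db libraries. The log2 fold change of Pdgfd was -0.92 (SE 0.24; edgeR adjusted p = 0.0212), and -0.84 without db/m replicate 6, where the call ended (edgeR adjusted p = 0.0506). Vegfd, the lymphangiogenic ligand of Flt4, was at 10.4 to 18.4 CPM in db/db (median 13.0) and 4.05 to 16.5 CPM in db/m (median 6.69). Its log2 fold change was 0.75 (SE 0.24; edgeR adjusted p = 0.0597), and 0.97 without db/m replicate 8, where it passed (edgeR adjusted p = 0.00617). Leaving out number 7 of db/m, or number 1 or 8 of db/db, also brought it past (0.77 to 0.83), as did DESeq2 (adjusted p = 0.0298). Hif1a, the hypoxia-inducible factor subunit, was at 50.6 ± 11.2 CPM in db/db and 39.7 ± 12.8 CPM in db/m (0.35, SE 0.17; edgeR adjusted p = 0.251), and at 0.51 without db/m replicate 8 (edgeR adjusted p = 0.0342).

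Of 25 other endothelial genes, 22 were tested, 1 rose and 0 fell, with a median of 0.03. Over all genes tested, 3.91% were called higher and 3.49% lower. At an unadjusted p under 0.05 in edgeR there were 6 of the 22 (27.3%, against 21.1% of all genes tested), 5 higher and 1 lower. DESeq2 called 1 higher and 0 lower. The gene that rose was Cd93, a surface glycoprotein of endothelial and myeloid cells. It ran from 27.5 to 53.7 CPM in db/db (median 42.2) and from 15.7 to 32.9 CPM in db/m (median 27.8), and 8 of 9 db/db libraries lay above the highest db/m library. Its log2 fold change was 0.61 (SE 0.14; edgeR adjusted p = 0.00971). Cd34, a sialomucin, was at 33.3 ± 6.29 CPM in db/db and 23.9 ± 6.87 CPM in db/m (0.49, SE 0.17; edgeR adjusted p = 0.0944), and at 0.56 without db/db replicate 1 (edgeR adjusted p = 0.0294). Klf4, a transcription factor induced by shear stress, was at 23.9 ± 4.95 CPM in db/db and 17.8 ± 2.89 CPM in db/m (0.42, SE 0.14; edgeR adjusted p = 0.0671). It passed without db/db replicate 1 or 5 (edgeR adjusted p = 0.0398 and 0.0497).

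Of 15 other mural genes, 12 were tested, 1 rose and 2 fell, with a median of 0.41. Over all genes tested, 7.39% were called. At an unadjusted p under 0.05 in edgeR there were 8 of the 12 (66.7%, against 21.1% of all genes tested), 6 higher and 2 lower. The list was chosen with earlier results of these data known. DESeq2 called 4 higher, Ren1 with Mcam, Myl9 and Gata3, and the same 2 lower. The genes that fell, Kcnj8 and Abcc9, encode the pore and the regulatory subunit of the ATP-sensitive potassium channel of pericytes and smooth muscle. They are neighbours on chromosome 6, with RefSeq starts 130660 bases apart (GRCm38.p6). Kcnj8 was at 0.414 to 3.92 CPM in db/db (median 1.79) and 3.81 to 6.33 CPM in db/m (median 5.79), below every db/m library in 8 of 9 db/db libraries. Its log2 fold change was -1.43 (SE 0.30; edgeR adjusted p = 0.00428) on 79 counts over db/db and 203 over db/m, and it was called in all 17 fits that left out 1 library. Abcc9 was at 6.33 to 10.1 CPM in db/db (median 8.36) and 9.95 to 15.8 CPM in db/m (median 12.4), with 8 of 9 db/db libraries below every db/m library. Its log2 fold change was -0.52 (SE 0.14; edgeR adjusted p = 0.0265). That call ended when number 2, 3 or 7 of db/m, or number 3 or 6 of db/db, was left out (edgeR adjusted p from 0.0510 to 0.0654, log2 fold change from -0.51 to -0.45). Renin, Ren1, made by modified mural cells of the afferent arteriole, rose. It was at 82.1 to 242 CPM in db/db (median 122) and 44.6 to 108 CPM in db/m (median 91.8), a log2 fold change of 0.71 (SE 0.21; edgeR adjusted p = 0.0467). Its call ended in 10 of 17 fits that left out 1 library, numbers 1, 3, 4, 6 and 8 of db/m and numbers 2, 4, 6, 7 and 8 of db/db, with log2 fold changes of 0.56 to 0.74. Some mouse strains carry a close copy, Ren2, whose reads cannot be told from those of Ren1 here.

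**Figure D4:**
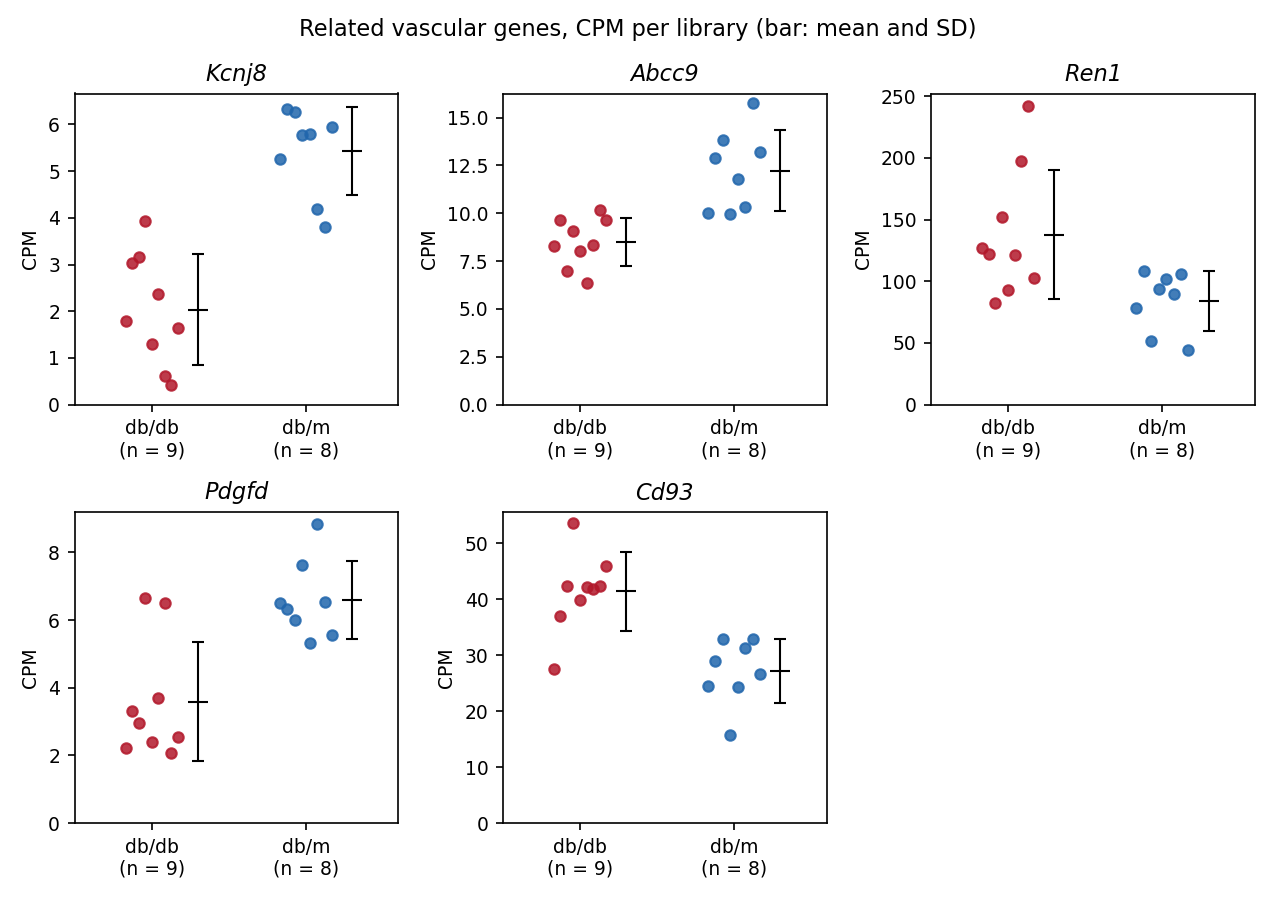
CPM (vertical axes, from 0) in each library for Kcnj8, Abcc9, Ren1, Pdgfd and Cd93; points are animals, 9 db/db and 8 db/m, and bars give the mean and SD. Kcnj8 and Abcc9 lie below nearly all db/m libraries in db/db, Cd93 above, and Ren1 reaches 242 CPM in db/db replicate 8.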

How the data were processed

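The authors deposited raw counts per gene for 17 libraries. STAR 2.7.3a, HTSeq 2.16.2 and the human build GRCh38 are listed, without roles, per the submitters' processing notes, although the gene identifiers are those of mouse Ensembl. Neither mouse build and annotation nor strand setting and use of molecular barcodes is given in the sources. Reads outside genes (19.3% of all) and ambiguous reads (0.533%) were left out. Symbols came from a table that matched 55141 of 55487 identifiers, and overlaps from GENCODE M21. No library was a copy of another (lowest chi-square per degree of freedom within a group 3.57).

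The test was edgeR's quasi-likelihood fit (version 4.0.16, TMM scaling, filterByExpr with a minimum count of 10, robust option off) in R 4.3.3, db/db minus db/m, with no covariate and Benjamini-Hochberg adjustment over all 12131 genes kept. The SE is the log2 fold change divided by the square root of F. Log2 CPM used a prior count of 2, and permutation tests enumerated all 24310 splits. Permutation p-values of single genes are not adjusted. DESeq2 1.42.0, RLE size factors, no filter, the robust option, exclusion of mitochondrial genes, a replicate block and leaving out libraries were tried. The fit was tested on simulated data. Replicates are separate animals per the series design. Same-numbered libraries of the groups are not stated to be paired. The groups also differ at a further locus by design, and that locus and some marker genes are not reported here.

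The genes and lists were chosen with earlier results of these data known. Named are called members, the 3 members of each role group with the smallest p, and the 3 such genes of each further list; the other members are given in clauses. Erg, Fli1, the markers in the text and the genes of the closing section fall outside that rule and were picked with their values seen.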

Additional observations from a re-analysis of the deposited data

Results flagged for a closer look

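In 92 sets of values (46 genes in 2 groups), 13 had a highest or lowest library apart from its group by a Dixon gap test (95% level). For normally distributed values chance flags about 1 in 20 sets. The test was run on CPM, not log2 CPM, and for skewed values that rate need not hold. All flags except that of Cd34 were at the high end. In db/db, replicate 8 was the highest for Eng (144.7 CPM, next 92.0), Ehd3 (144.5 CPM, next 108) and Cspg4 (39.3 CPM, next 22.3). Replicate 9 was the highest for Acta2 (145.9 CPM, next 91.8) and Myh11 (68.7 CPM, next 43.7). Replicate 1 was the highest for Plat (11.6 CPM, next 3.43) and the lowest for Cd34 (19.7 CPM, next 30.6).

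In db/m, replicate 8 was the highest for Plat (32.8 CPM, next 4.86), Emcn (95.8 CPM, next 61.1), Pdgfra (23 CPM, next 14.9), Myh11 (85.4 CPM, next 49.7) and Hif1a (69.7 CPM, next 39.7). Replicate 2 was the highest for Angpt1 (19.2 CPM, next 14.1). No value of Nrp1, Kdr, Vegfa, Kcnj8 or Abcc9 stood apart in this way.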

How the results depend on the processing

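The count of vascular genes called lower stayed at 1 under every setting tried except without db/db replicate 1, so leaving out 1 library gave 1 to 3, the added genes being Vegfa and Plat. The count called higher was 0, and leaving out 1 library gave 0 to 1. It was 1 with DESeq2, with RLE size factors, without mitochondrially encoded genes, and without db/m replicate 8 and db/db replicate 8, Sema3g each time. Nrp1 kept its call under all 26 alternatives, at -0.81 to -0.65. Without db/m replicate 8 and db/db replicate 9, or without db/m replicates 1 and 7 (settings chosen after seeing the data), the counts were 0 higher and 1 lower.

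Same-numbered libraries deviated together by r = -0.454 to 0.212, over 0.1 in 2 of 8 pairs, and 1 of 8 db/db libraries correlated best with its own number, so the numbers were not taken as pairs. With the number as a replicate block, 0 vascular genes were called higher and 1 lower (Nrp1 at -0.71, edgeR adjusted p = 0.0189), and the calls of Cd93, Pdgfd, Abcc9 and Ren1 ended (edgeR adjusted p = 0.0807, 0.0560, 0.101 and 0.112); over all genes 200 were higher and 235 lower, against 474 and 423. Signs of uncalled genes turned for Plat (0.0076) and Emcn (0.034) without db/m replicate 8 and db/db replicate 8, for Nos3 (mean log2 CPM difference -0.0062 with a prior count of 0.5), and for Tek, where leaving out 1 library gave -0.13 to 0.078 (above 0 without number 7 of db/m or number 3, 4, 5 or 6 of db/db), and 0.12 came without db/m replicates 1 and 7. The cause was not tested. Abcc9 also lost its call with no low-count filter (edgeR adjusted p = 0.0911) and Ren1 with the robust option (0.0517). Depth limits Gli1, Vwf, Nos3 and Plat, and also the called genes Kcnj8 and Pdgfd, with 79 and 134 counts over db/db. For these genes 3 counts correspond to 0.380 to 0.929 CPM, covering counting error only. The lowest Kcnj8 value, 0.414 CPM in db/db replicate 8, lies under the 0.621 CPM of 3 counts in that library.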

Other observations

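Leukocyte adhesion molecules of activated endothelium, named after their values were seen, had negative values or too few counts, and none passed the test. Vcam1 was at 7.01 ± 1.28 CPM in db/db and 9.08 ± 1.44 CPM in db/m (log2 fold change -0.37, SE 0.15; edgeR adjusted p = 0.157), and Icam1 at 8.16 ± 4.11 CPM in db/db and 8.87 ± 2.26 CPM in db/m (-0.13, SE 0.24). The selectins Sele and Selp had 4 and 3 counts over db/db, against 5 and 6 over db/m, too few to test. The Notch ligands Dll4 and Jag2 also missed the filter, Dll4 with 72 counts over db/db and 104 over db/m, and Jag2 with 126 over db/db and 75 over db/m.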
